A study of Mus musculus with 12 samples.

Results

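The growth hormone and insulin-like growth factor 1 (IGF1) axis was followed through 10 genes: Ghr, Socs2, Cish, Igf1, Igf1r, Igfals, Igfbp1, Igfbp2, Igfbp3 and Igfbp5. They were a named list, chosen without a threshold on any measured value, and all 10 were measured among 19938 genes that the platform table names. Each gene was read by 1 probe set, the one with a single gene symbol and the highest mean over the 12 arrays. Jejunum of male mice, 8 weeks old, was taken 7 days after common bile duct ligation (CBDL), which stops the flow of bile into the gut, or after a sham operation. The groups were A/J CBDL, A/J sham, B6 CBDL and B6 sham, with 3 arrays each, B6 being C57BL6J, and the labels list no genetic alteration or test drug for any group. By the methods all operated mice, sham included, had isoflurane anaesthesia and buprenorphine against pain. The arrays are labelled as separate samples of each group, and the labels used here do not say whether each came from 1 mouse, so a p-value here reflects variation between arrays, which may be technical.

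Growth hormone from the pituitary binds its receptor, Ghr, and through the kinase Jak2 switches on the transcription factors Stat5a and Stat5b. In liver these raise Igf1, the circulating growth factor, and Igfals, which holds IGF1 in a long-lived complex with Igfbp3, while Socs2 and Cish are STAT5 targets that dampen the signal. IGF-binding proteins carry IGF1 in blood and tissue and limit its access to its receptor, Igf1r, which sits on epithelial, muscle and stromal cells of the gut. Most circulating IGF1 comes from hepatocytes, and in the bowel Igf1 is mainly a product of mesenchymal cells.

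The tissue label was checked first. The mean log2 signal of 6 enterocyte markers was between 12.4 and 12.7 on every array. The mean of 10 hepatocyte markers was 8.88, 9.61 and 9.18 in A/J CBDL, against 4.94, 4.79 and 5.54 in A/J sham, and 9.05, 9.40 and 9.21 in B6 CBDL, against 6.56, 7.55 and 8.99 in B6 sham. A/J CBDL was above A/J sham for 10 of the 10 markers at an adjusted p under 0.05, beside 0.630% of all probe sets. The largest differences were those of Alb (5.94), Ahsg (5.86), Fgb (5.26), Cyp2e1 (4.46), Mat1a (4.17) and Bhmt (3.97). In B6 0 of the 10 passed, 10 of the 10 were positive with a median of 1.24, and Bhmt (3.07), Mat1a (2.86), Ahsg (2.23), Fgb (1.66) and the mean of the 10 lay above sham on every array. Alb, Apoh, Serpinc1, F2, Ttr and Cyp2e1 overlapped between B6 CBDL and B6 sham. Hepatocyte transcripts thus varied between groups and among the B6 sham arrays, and in whole tissue fewer cells of a type and less RNA per cell cannot be told apart. Markers of liver endothelium and Kupffer cells (4 genes) had means of 4.99 to 5.26 in A/J CBDL, against 4.61 to 4.90 in A/J sham, and of 5.08 to 5.24 in B6 CBDL, against 4.74 to 5.18 in B6 sham, with none of the 4 called within either strain. Of these, Clec4g of liver endothelium was 2.09 times as high in A/J CBDL as in A/J sham without overlap (adjusted p = 0.0916). Outside the hepatocyte list, 1 of the 6 enterocyte markers, Lct, fell by 0.47 in CBDL averaged over strains (adjusted p = 0.0303), where 1.74% of all probe sets were called. The T cell marker Cd3e, 1 of 4 leukocyte markers measured, was 0.59 higher in A/J CBDL than in B6 CBDL (adjusted p = 0.0274), where 1.78% were called. Albumin (Alb) stands beside the results below as the marker of liver-type transcripts. It was 12.15, 12.63 and 12.25 in A/J CBDL, against 5.47, 5.31 and 8.44 in A/J sham, and 11.85, 12.46 and 12.08 in B6 CBDL, against 10.69, 11.61 and 12.28 in B6 sham.

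Promoter windows from RefSeq (build GRCm38.p6, 250 bases before to 50 after each gene's start) were matched for 9 of the 10 genes, with 13 windows in all, and were searched for a pair of motifs on both strands. Socs2 had no matched window, so its promoter was not searched. The STAT motif TTCNNNGAA, which reads the same on both strands, stood in 8.3% of all 32851 mouse windows and, among the members, in Cish and in 2 of the 3 Igfals windows. The core of the insulin response element, TGTTTTG or TATTTTG, stood in 10.2% of all windows and, among the members, in Igfbp1, where the element is known to bind FoxO factors that insulin removes. Both sequences are shown because each holds 2 matches, Cish being a STAT5 target that did not pass the test in either strain and Igfbp1 the binding protein whose CBDL arrays lay above sham in both. The Igf1 window held neither motif. Capitals mark the motifs, which start 108 and 97 bases before the start site in Igfbp1, and at 0 and 11 bases after it in Cish. A match is a string of letters and not a measured binding site.
Igfbp1, chr11:7197537-7197836, plus strand: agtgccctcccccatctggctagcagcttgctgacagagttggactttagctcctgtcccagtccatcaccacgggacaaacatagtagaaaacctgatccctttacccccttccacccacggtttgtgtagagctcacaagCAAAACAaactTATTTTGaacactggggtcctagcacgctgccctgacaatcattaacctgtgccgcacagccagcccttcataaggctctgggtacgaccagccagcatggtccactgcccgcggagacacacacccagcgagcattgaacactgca
Cish, chr9:107296409-107296708, plus strand: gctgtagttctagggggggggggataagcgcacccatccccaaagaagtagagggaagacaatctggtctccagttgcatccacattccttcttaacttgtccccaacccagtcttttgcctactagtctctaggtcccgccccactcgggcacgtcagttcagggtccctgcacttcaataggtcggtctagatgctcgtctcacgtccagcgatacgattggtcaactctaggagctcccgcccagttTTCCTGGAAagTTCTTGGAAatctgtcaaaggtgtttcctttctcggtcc

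In A/J mice, Igf1 was the member that changed after CBDL, at 2.44 times the sham level, and the other 9 did not pass the test. In B6 mice, Igfbp1 had the largest difference of the 10, 2.28-fold, without passing the test, and Igf1 did not separate CBDL from sham. Averaged over both strains, Igf1 and Igfbp1 rose. The growth hormone receptor and the STAT5 targets Socs2 and Cish had CBDL values that overlapped sham in both strains, as did Igfbp2, Igfbp3 and Igfbp5. Groups were compared with limma, and a gene was called where its p, adjusted by Benjamini and Hochberg's method over all 35556 probe sets, was under 0.05. In A/J CBDL against A/J sham 1 of the 10 was called, with 0.818% of all probe sets called, and in B6 CBDL against B6 sham 0 of the 10, with 0.0534% called. At an unadjusted p under 0.05 there were 5 of the 10 in A/J, beside 14.2% of all probe sets, and 1 of the 10 in B6, beside 7.64%. The median log2 difference of the 10 was 0.27 in A/J and 0.03 in B6, beside -0.01 and -0.00 for all probe sets, and 9 of the 10 were positive in A/J and 5 in B6. CBDL lay above sham without overlap for 4 of the 10 in A/J (Igf1, Igf1r, Igfals and Igfbp1), as for 8.04% of all probe sets, and for 2 of the 10 in B6 (Igf1r and Igfbp1), as for 7.89%.

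**Figure D1:**
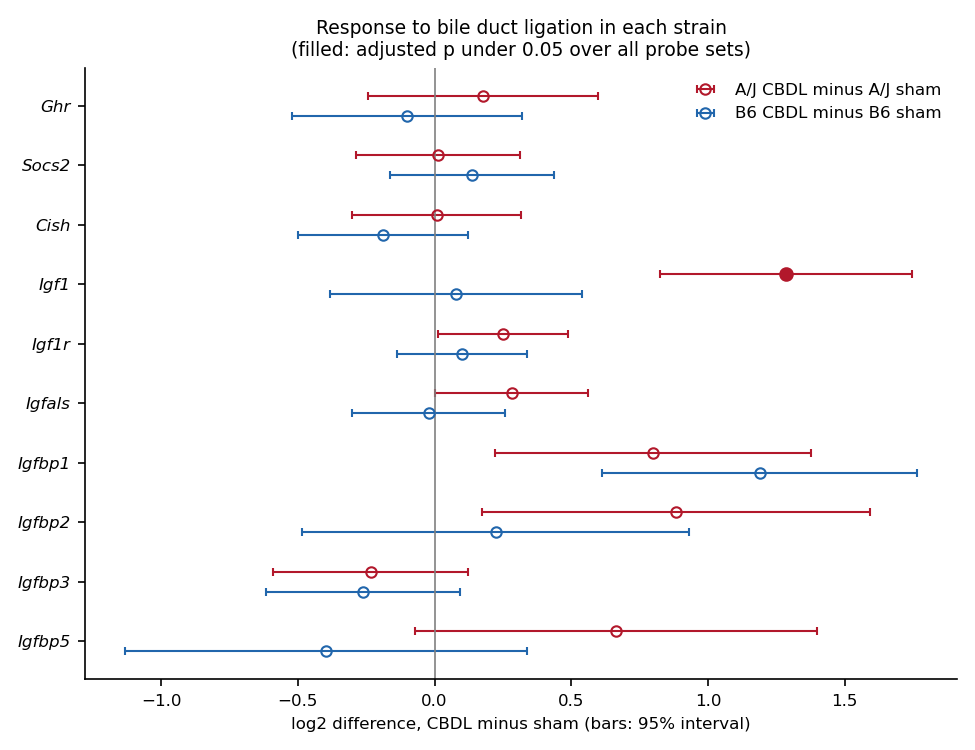
Log2 difference between CBDL and sham for the 10 genes, with A/J in red above B6 in blue, bars for the 95% interval and filled points for an adjusted p under 0.05. Igf1 in A/J (1.29) is the single filled point, and the Igfbp1 bars lie above 0 in both strains.

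The receptor Ghr takes up the hormone signal. Its log2 signal was 7.78, 7.76 and 7.67 in A/J CBDL, against 7.39, 7.70 and 7.59 in A/J sham, and 7.31, 7.71 and 7.74 in B6 CBDL, against 7.25, 7.73 and 8.09 in B6 sham. The groups overlapped in both strains, and B6 sham alone spanned more than the other 3 groups' means. The difference was 0.18 in A/J (95% interval -0.24 to 0.60, adjusted p = 0.722) and -0.10 in B6 (-0.52 to 0.32, adjusted p = 0.967).

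Socs2, the suppressor of cytokine signalling whose loss gives large mice, was read as 8.19, 8.36 and 8.03 in A/J CBDL, against 8.06, 8.47 and 8.02 in A/J sham. In B6 it was 8.10, 7.90 and 7.91 after CBDL and 7.83, 7.72 and 7.94 after sham. The values of CBDL and sham interleaved in each strain, and all 3 A/J sham arrays lay above all 3 B6 sham arrays. The CBDL difference was 0.01 in A/J (-0.29 to 0.31, adjusted p = 0.975) and 0.14 in B6 (-0.16 to 0.44, adjusted p = 0.923). A/J sham exceeded B6 sham by 0.35 (standard error 0.14, adjusted p = 0.249). With arrays weighted by quality this strain difference was 0.50 (adjusted p = 0.0361). A second Socs2 probe set gave -0.07 for CBDL in B6, so the direction there differs between probe sets, and 0.039 for A/J sham minus B6 sham.

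Cish, the second STAT5 target, carries the pair of STAT motifs printed above. It was 6.13, 6.39 and 6.27 in A/J CBDL, against 6.05, 6.49 and 6.22 in A/J sham, and 6.0, 6.21 and 6.23 in B6 CBDL, against 6.37, 6.11 and 6.52 in B6 sham. CBDL and sham overlapped in both strains. The difference was 0.01 in A/J (-0.30 to 0.32, adjusted p = 0.985) and -0.19 in B6 (-0.50 to 0.12, adjusted p = 0.870). The intervals of Socs2 and Cish in A/J end at 0.31 and 0.32, below the lower end of the Igf1 interval, 0.82. The genes were not tested against each other, and hormone signalling was not measured.

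Igf1, the growth factor itself, was 6.29, 6.61 and 5.99 in A/J CBDL, against 4.94, 5.04 and 5.06 in A/J sham. The 3 CBDL arrays all lay above the sham arrays, which were close together. In B6 it was 5.91, 6.01 and 5.82 after CBDL and 5.35, 5.91 and 6.26 after sham, so the CBDL arrays fell inside the sham range. Group means were 6.30 ± 0.31 in A/J CBDL, 5.01 ± 0.06 in A/J sham, 5.91 ± 0.10 in B6 CBDL and 5.84 ± 0.46 in B6 sham (SD, n = 3 each). Igf1 rose by 1.29 in A/J (standard error 0.21, 95% interval 0.82 to 1.75, adjusted p = 0.0180 by limma), and the difference in B6 was 0.08 (-0.38 to 0.54, adjusted p = 0.977). Leaving out A/J CBDL replicate 1 gave an adjusted p of 0.0644, A/J CBDL replicate 2 of 0.0823, A/J sham replicate 1 of 0.0569 and A/J sham replicate 2 of 0.0782, and without any 1 of the 12 arrays the difference stayed between 1.13 and 1.44.

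Whether the Igf1 response differed between strains was tested by the interaction, the A/J difference minus the B6 difference. It was 1.21 (standard error 0.30, 95% interval 0.56 to 1.86), with an adjusted p of 0.460 by limma, at rank 142 of all probe sets. The interaction passed for 0 of the 10 members and for 0.0366% of all probe sets, and 2 of the 10 (Igf1 and Igfbp5) had an unadjusted p under 0.05, beside 6.88% of all. Igf1 in A/J sham was below B6 sham by 0.82 (standard error 0.21, adjusted p = 0.0862) with no overlap of the arrays. After CBDL the strains differed by 0.38 (adjusted p = 0.465) and overlapped. Without B6 sham replicate 1, whose Igf1 was the lowest of its group, the sham difference was -1.07 and passed (adjusted p = 0.0151), and among probe sets with exactly 1 symbol it passed as well (adjusted p = 0.0370). The order of the group means was A/J CBDL, B6 CBDL, B6 sham and A/J sham, and neighbours in it overlapped except at the last step, between B6 sham and A/J sham, which was apart without passing the test.

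Igf1 moved with Alb. A/J sham was lowest in both, B6 sham spanned a wide range in both, and in that group replicate 1 was the lowest and replicate 3 the highest for Igf1 and for Alb. With Alb per array in the fit, the A/J difference of Igf1 was 0.51 (standard error 0.55, adjusted p = 0.888) and passed no longer, with a standard error more than 2 times as wide. In that fit 0 of all probe sets passed in A/J. In A/J sham the array with an Alb of 8.44 had an Igf1 of 5.06, beside 4.94 and 5.04 on the arrays with an Alb of 5.47 and 5.31. The part of liver-type transcripts in the Igf1 difference was not tested beyond this fit.

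**Figure D2:**
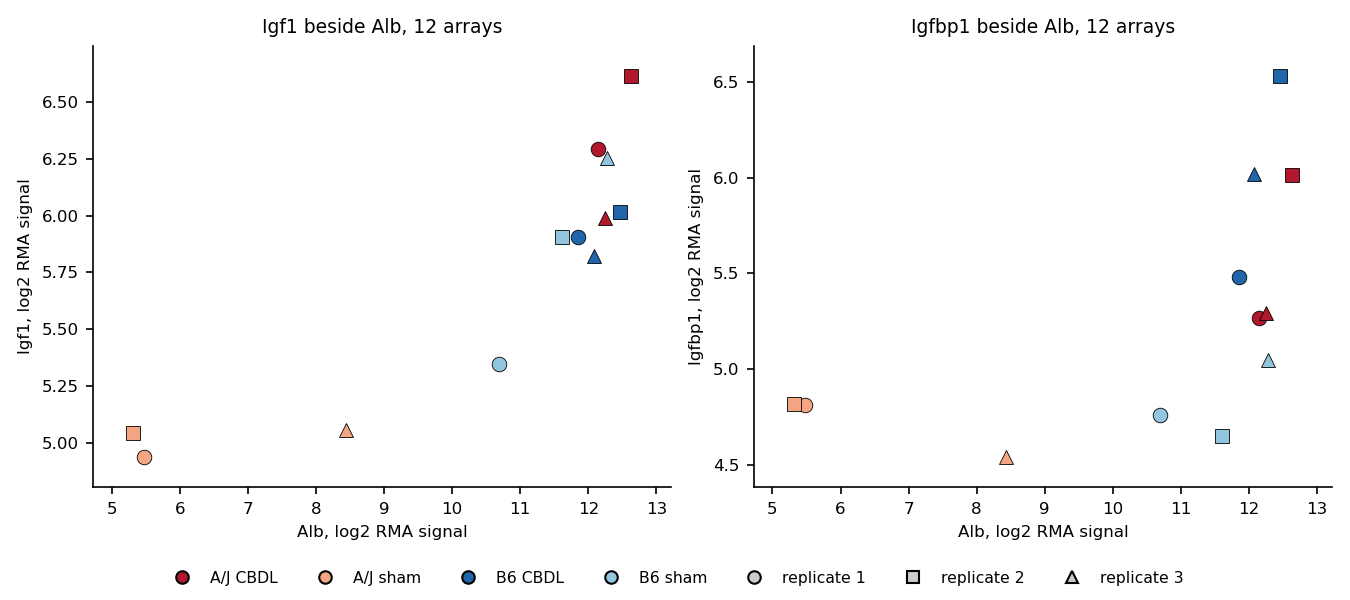
Log2 signal of Igf1 (left) and Igfbp1 (right) against that of Alb on the 12 arrays, coloured by group, with a symbol for each replicate number. Igf1 is lowest in A/J sham, where Alb is lowest, and Igfbp1 in B6 CBDL (5.48 to 6.53) lies above B6 sham (4.65 to 5.05), where Alb overlaps and the mean of the 10 hepatocyte markers does not.

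The IGF1 receptor, Igf1r, was 6.09, 6.43 and 6.08 in A/J CBDL, against 5.91, 5.88 and 6.08 in A/J sham, and 6.16, 6.18 and 6.30 in B6 CBDL, against 6.12, 6.14 and 6.09 in B6 sham. CBDL lay above sham without overlap in both strains, by a margin that is within rounding in A/J. The difference was 0.25 in A/J (standard error 0.11, adjusted p = 0.327) and 0.10 in B6 (standard error 0.11, adjusted p = 0.932). Igfals, the acid-labile subunit made by hepatocytes, was low on these arrays, at 4.73, 4.80 and 4.73 in A/J CBDL, against 4.57, 4.57 and 4.28 in A/J sham. In B6 it was 4.54, 4.65 and 4.80 after CBDL and 4.58, 4.54 and 4.94 after sham. The A/J arrays did not overlap and the B6 arrays did, with differences of 0.28 (adjusted p = 0.346) in A/J and -0.02 (adjusted p = 0.991) in B6.

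Igfbp1 is the binding protein that the liver releases in fasting, injury and low insulin. It was 5.27, 6.01 and 5.29 in A/J CBDL, against 4.81, 4.82 and 4.54 in A/J sham, and 5.48, 6.53 and 6.02 in B6 CBDL, against 4.76, 4.65 and 5.05 in B6 sham. The 6 CBDL arrays all lay above the 6 sham arrays. In both strains replicate 2 was the highest CBDL array, as it was for Alb (12.63 in A/J, 12.46 in B6). Within each CBDL group Igfbp1, Alb and the mean of the hepatocyte markers ranked the arrays in the same order. In the sham groups Igfbp1 and Alb ranked them differently. The Igfbp1 difference was 0.80 in A/J (standard error 0.26, 95% interval 0.22 to 1.37, adjusted p = 0.201) and 1.19 in B6 (standard error 0.26, 95% interval 0.61 to 1.77, adjusted p = 0.162, rank 186 of all probe sets). The strain responses did not pass a test of their difference (-0.39, 95% interval -1.21 to 0.42, adjusted p = 0.880). Averaged over strains, Igfbp1 rose by 0.99 (standard error 0.18, adjusted p = 0.0242), or 1.99-fold.

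Igfbp1 separated the B6 groups, and liver-type transcripts did so in part. The Alb difference in B6 was 0.60 (standard error 0.69, adjusted p = 0.935) with overlap, whereas Bhmt, Mat1a, Ahsg and Fgb, like Igfbp1, were higher on every B6 CBDL array. On B6 sham replicate 3, Alb was 12.28, above 2 of the 3 B6 CBDL arrays, while Igfbp1 (5.05), Bhmt (8.27), Mat1a (7.87), Ahsg (9.83) and Fgb (9.12) were below all 3 of them. Other hepatocyte markers went differently on that array. Cyp2e1 (9.75) and Ttr (10.07) were above all 3 B6 CBDL arrays, and Apoh, Serpinc1 and F2 lay within their range. With Alb in the fit, the B6 difference of Igfbp1 was 1.17 (standard error 0.28), against 1.19 without it, and the part of the other hepatocyte markers was not tested. Among probe sets with exactly 1 symbol the B6 difference passed (adjusted p = 0.0371), and with array weights it was 1.30 and passed as well (adjusted p = 0.0485).

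In the averaged comparison 2 of the 10 members passed, Igf1 (0.68, standard error 0.15, adjusted p = 0.0473) and Igfbp1, with 1.74% of all probe sets called and 14.1% at an unadjusted p under 0.05. The Igf1 call passed without A/J CBDL replicate 3 (adjusted p = 0.0410) or B6 sham replicate 3 (0.0181) and was lost without any 1 of the other 10 arrays, with an adjusted p of up to 0.113. The Igfbp1 call was lost without A/J sham replicate 2 (0.0611), B6 CBDL replicate 3 (0.0657), B6 sham replicate 1 (0.0661) or B6 sham replicate 2 (0.0637). Across these omissions the Igfbp1 average stayed between 0.86 and 1.13.

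Igfbp2, a binding protein of liver and gut that growth hormone lowers, varied most within A/J CBDL. It was 6.18, 7.71 and 7.16 in A/J CBDL, against 6.22, 6.15 and 6.03 in A/J sham, and 6.23, 6.80 and 6.65 in B6 CBDL, against 6.04, 6.29 and 6.69 in B6 sham. A/J CBDL replicate 1 lay within the sham range and the other 2 arrays lay well above it. The difference was 0.88 in A/J (standard error 0.32, adjusted p = 0.249) and 0.22 in B6 (adjusted p = 0.953). Without A/J CBDL replicate 1 the A/J difference was 1.30 and passed (adjusted p = 0.0466), without A/J CBDL replicate 2 it was 0.53 (adjusted p = 0.533), and it did not pass in 11 of the 12 omissions. The interaction was 0.66 (adjusted p = 0.833).

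Igfbp3, the main carrier of circulating IGF1, was 7.49, 7.56 and 7.57 in A/J CBDL, against 7.42, 7.77 and 8.12 in A/J sham, and 7.41, 7.13 and 7.38 in B6 CBDL, against 7.68, 7.38 and 7.64 in B6 sham. It was the 1 member with a negative difference in A/J, -0.23 (95% interval -0.59 to 0.12, adjusted p = 0.554). In B6 the difference was -0.26 (-0.61 to 0.09, adjusted p = 0.809). The groups overlapped in both strains.

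Igfbp5, which muscle and mesenchymal cells of the bowel make, was 7.25, 6.24 and 6.13 in A/J CBDL, against 5.43, 6.35 and 5.86 in A/J sham, and 6.07, 5.69 and 5.84 in B6 CBDL, against 5.81, 6.79 and 6.19 in B6 sham. A single array, A/J CBDL replicate 1, stood at the top, and A/J sham replicate 1 at the bottom. The difference was 0.66 in A/J (standard error 0.33, adjusted p = 0.402) and -0.40 in B6 (adjusted p = 0.896). Leaving out 1 array moved it widely, to 0.31 without A/J CBDL replicate 1 and 0.44 without A/J sham replicate 1 in A/J, and to -0.13 without B6 sham replicate 2 and -0.62 without B6 sham replicate 1 in B6. The interaction was 1.06 (standard error 0.47, adjusted p = 0.719). The mean of 6 smooth muscle markers ran alongside in 3 of the 4 groups. It was 9.11, 8.28 and 8.18 in A/J CBDL, against 6.88, 9.32 and 8.48 in A/J sham, and 7.06, 7.22 and 7.88 in B6 CBDL, against 8.53, 9.19 and 8.76 in B6 sham. Both Igfbp5 and the muscle markers were highest in replicate 1 of A/J CBDL and in replicate 2 of A/J sham and of B6 sham, but in B6 CBDL the array highest in Igfbp5, replicate 1, was lowest in the muscle markers. None of the 6 muscle markers passed within either strain, and their part in the Igfbp5 values was not tested.

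**Figure D3:**
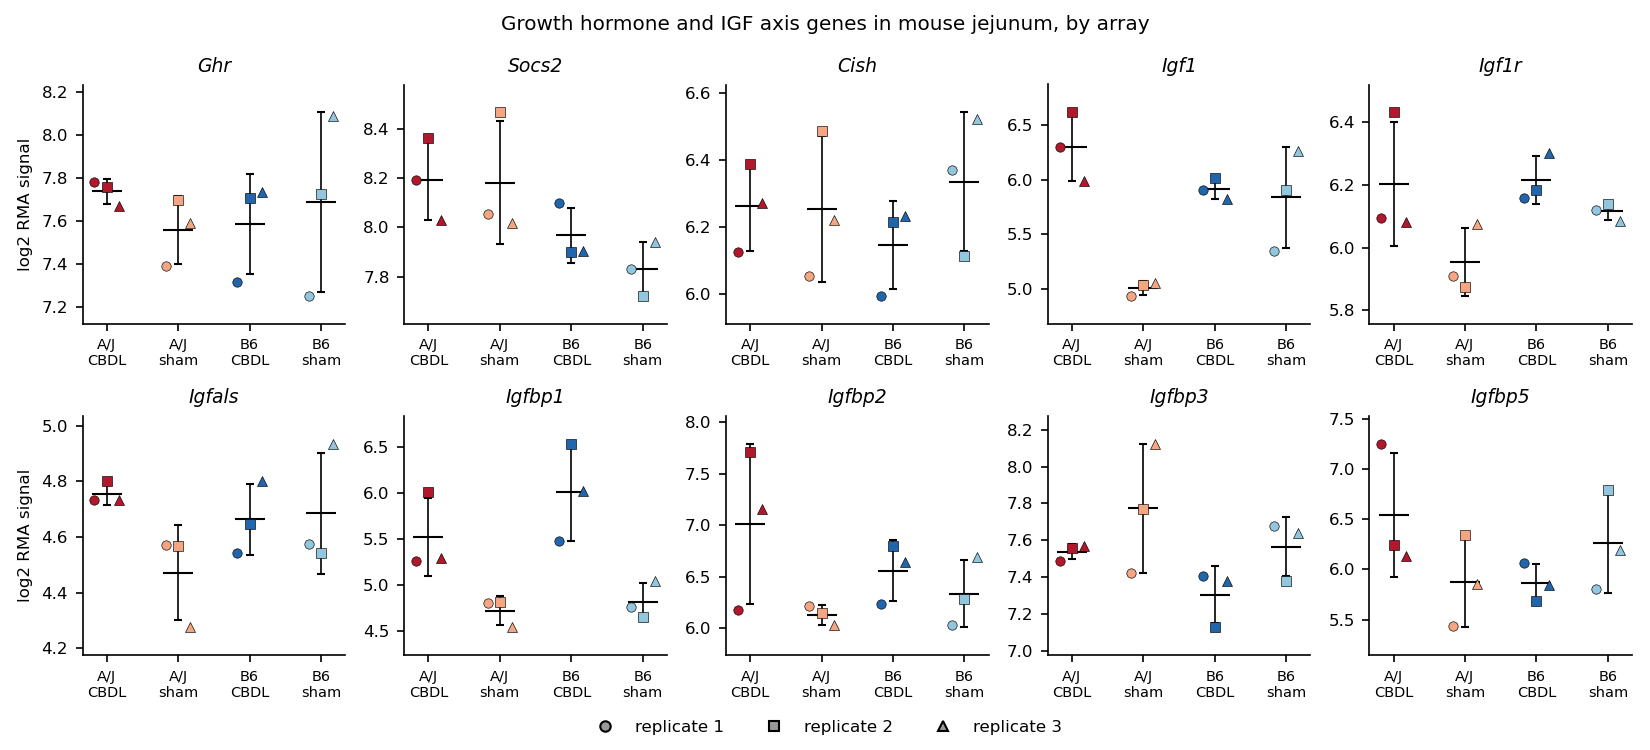
Log2 RMA signal of the 10 genes on each array, by group, with the mean and SD of 3 arrays as bars and a symbol for each replicate number. Igf1 separates A/J CBDL from A/J sham and Igfbp1 separates CBDL from sham in both strains, while Ghr, Socs2, Cish, Igfbp2, Igfbp3 and Igfbp5 overlap in both.

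Between strains, none of the 10 passed. In A/J sham against B6 sham 0 of 10 were called, with 1.87% of all probe sets, and in A/J CBDL against B6 CBDL 0 of 10, with 1.78%. An unadjusted p under 0.05 was found for 2 of the 10 between shams (Igf1 and Socs2), beside 15.4% of all probe sets, and for 0 of the 10 after CBDL, beside 13.7%. The members' median was -0.15 in sham and 0.19 in CBDL, beside 0.01 for all probe sets in each. After CBDL, Igfbp5 was higher in A/J on every array (0.68, adjusted p = 0.413) and so was Igfbp3 (0.23, adjusted p = 0.588), while Igfbp1 was 0.49 below B6 (adjusted p = 0.460) with overlap. Those 2 were the members with no overlap after CBDL, as for 21.7% of all probe sets, and between shams there were 3 (Igf1 and Igf1r lower and Socs2 higher in A/J), as for 18.7%. Sequence differences between the strains under the probes were not examined.

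Of 33 other genes of growth hormone, IGF and insulin signalling, 32 were measured. In A/J 2 of the 32 rose and none fell, in B6 none passed, and averaged over strains the same 2 rose, beside shares of all probe sets called higher of 0.630% in A/J and 1.12% in the average. The interaction and the strain comparisons called none of the 32. Their median difference was 0.06 in A/J and -0.00 in B6, next to the medians of all probe sets given above. The kinase Jak2 and the factors Stat5a and Stat5b were among the 30 that did not pass.

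The 2 were Igfbp4, a binding protein that holds IGF1 away from its receptor, and Pappa, the protease that cuts Igfbp4 and so frees IGF1. Igfbp4 was 8.13, 8.44 and 8.09 in A/J CBDL, against 6.90, 7.39 and 7.07 in A/J sham, and 8.04, 7.73 and 8.00 in B6 CBDL, against 7.40, 7.78 and 7.83 in B6 sham. The A/J groups were apart and the B6 groups overlapped. It rose by 1.10 in A/J (standard error 0.16, adjusted p = 0.0122), with 0.25 in B6 (adjusted p = 0.828) and an interaction of 0.85 (adjusted p = 0.553). Without A/J CBDL replicate 2 the A/J difference was 0.99 and no longer passed (adjusted p = 0.0613), and with the 6 A/J arrays alone the adjusted p was 0.0561.

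Pappa was 6.05, 6.30 and 5.95 in A/J CBDL, against 5.24, 5.26 and 5.29 in A/J sham, and 5.85, 5.59 and 5.75 in B6 CBDL, against 5.34, 5.34 and 5.24 in B6 sham. All 6 CBDL arrays lay above all 6 sham arrays, and the sham arrays of both strains were close together. It rose by 0.83 in A/J (standard error 0.11, adjusted p = 0.0068), and the B6 difference was 0.42 (standard error 0.11, adjusted p = 0.225). The interaction was 0.41 (adjusted p = 0.665). Averaged over strains, Pappa rose by 0.63 (adjusted p = 0.0028) and Igfbp4 by 0.68 (adjusted p = 0.0170), and the Igfbp4 call was lost without B6 CBDL replicate 3 (0.0516). With Alb per array in the fit the A/J differences were 0.84 for Pappa (standard error 0.31) and 0.97 for Igfbp4 (standard error 0.48). The estimates were close to those without Alb, where the standard errors were 0.11 and 0.16. Neither passed (adjusted p = 0.797 and 0.810), and in that fit 0 of all probe sets passed in A/J. The part of liver-type transcripts in both genes was not tested beyond this fit.

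**Figure D4:**
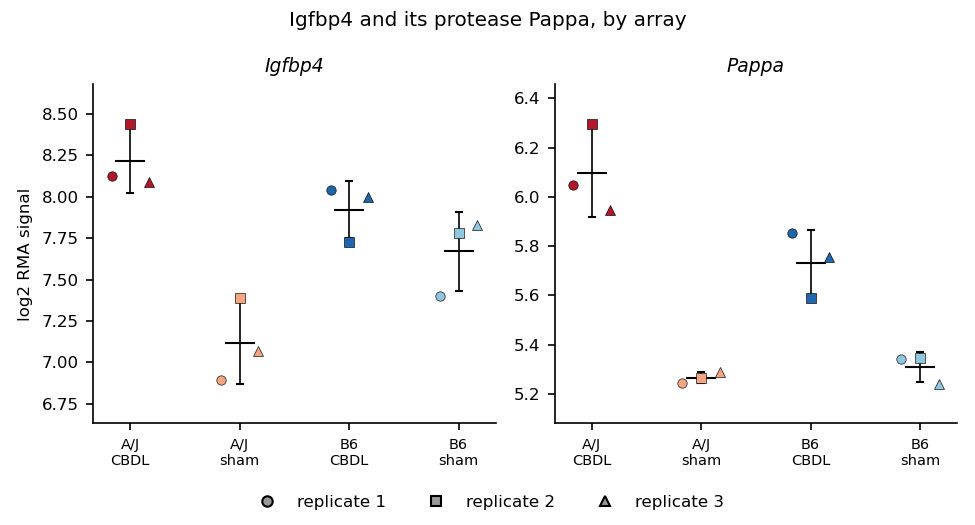
Log2 RMA signal of Igfbp4 and Pappa on each array, by group, with the mean and SD of 3 arrays as bars. Both are higher in A/J CBDL than in A/J sham on every array, and Pappa (5.59 to 5.85 in B6 CBDL, 5.24 to 5.34 in B6 sham) is also disjoint in B6.

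A further list holds mouse liver genes that depend on the pulsed secretion of growth hormone in males. The hormone itself was not measured here. Of the list 7 of 8 were measured, by a probe set with a single gene symbol. Mup20 had no such probe set, so its response is not among the counts below. By its own test the paper lists Mup20 and several other Mup genes, Mup3 among them, as raised in A/J after CBDL. In A/J the 7 differences after CBDL were all positive, with a median of 0.95, and none passed. In B6 1 of the 7 was positive, with a median of -0.40, and none passed. The interaction was positive for 7 of the 7, with a median of 1.34, and again none passed. A/J sham was below B6 sham for all 7, with a median of -0.99, and 1 was called lower, beside 1.29% of all probe sets. The 10 hepatocyte markers also had 10 positive differences in A/J (median 4.07), 10 positive interactions (median 2.80) and 10 negative differences between shams (median -2.50), but unlike the 7 they were all positive in B6. The part of liver-type transcripts in the values of the 7 was not tested beyond a fit of 1 of them with Alb per array, given below.

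The gene called lower was Mup3, a major urinary protein of male liver. Its near-identical family members can share its probes, so the signal may be that of several copies. It was 8.56, 8.89 and 7.68 in A/J CBDL, against 5.65, 5.58 and 5.49 in A/J sham, and 6.12, 6.03 and 5.36 in B6 CBDL, against 7.17, 8.62 and 10.50 in B6 sham. CBDL lay above sham on every array in A/J and below it on every array in B6, a separation downwards that 7.62% of all probe sets showed in B6. A/J sham was 3.19 below B6 sham (standard error 0.64, adjusted p = 0.0309), and that call was lost without A/J sham replicate 1 (0.0776), A/J sham replicate 2 (0.108), B6 CBDL replicate 2 (0.0523) or B6 sham replicate 2 (0.0764). It was also lost with the 6 sham arrays alone (0.181) and with the replicate number as a block (0.0671). With Alb per array in the fit this sham difference was -1.51 (standard error 1.54, adjusted p = 0.991). In that fit 6 of all probe sets passed between shams, against 665 without Alb. The CBDL difference was 2.80 in A/J (adjusted p = 0.0809) and -2.93 in B6 (adjusted p = 0.162). The interaction was 5.73 (95% interval 3.73 to 7.73, adjusted p = 0.134), and without B6 sham replicate 1 it was 6.53 and passed (adjusted p = 0.0119). The A/J difference passed without B6 sham replicate 1 (adjusted p = 0.0204) or replicate 3 (0.0071). It also passed with the 6 A/J arrays alone (0.0112) and among probe sets with exactly 1 symbol (0.0213). Among those probe sets the B6 difference passed as well (0.0344).

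Hsd3b5, a steroid dehydrogenase of male liver, and Slco1a1, a hepatic anion transporter, are shown as further examples, chosen after their values were seen. Hsd3b5 was 3.57, 3.70 and 3.92 in A/J CBDL, against 3.29, 3.19 and 3.27 in A/J sham, and 3.38, 3.34 and 3.43 in B6 CBDL, against 3.60, 3.63 and 5.50 in B6 sham. Slco1a1 was 4.19, 3.70 and 3.49 in A/J CBDL, against 2.93, 2.74 and 2.86 in A/J sham, and 2.84, 2.99 and 3.07 in B6 CBDL, against 3.20, 3.54 and 5.68 in B6 sham. In both genes CBDL was above sham in A/J and below sham in B6 without overlap, and B6 sham replicate 3 was far above the other arrays. Apart from that array, both genes lay below the array medians (5.36 to 5.51), so these are separations of low signals. Cyp4a12a and Elovl3 of the same list lay below the medians on every array. In A/J sham against B6 sham the differences were -0.99 for Hsd3b5 (adjusted p = 0.256) and -1.30 for Slco1a1 (adjusted p = 0.240). The other 4 of the 7, Cyp7b1, Cyp2d9, Cyp4a12a and Elovl3, overlapped between B6 CBDL and B6 sham, and Cyp2d9 had the positive difference (0.29, adjusted p = 0.937). Igf1 on the same B6 CBDL arrays lay within the B6 sham range.

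**Figure D5:**
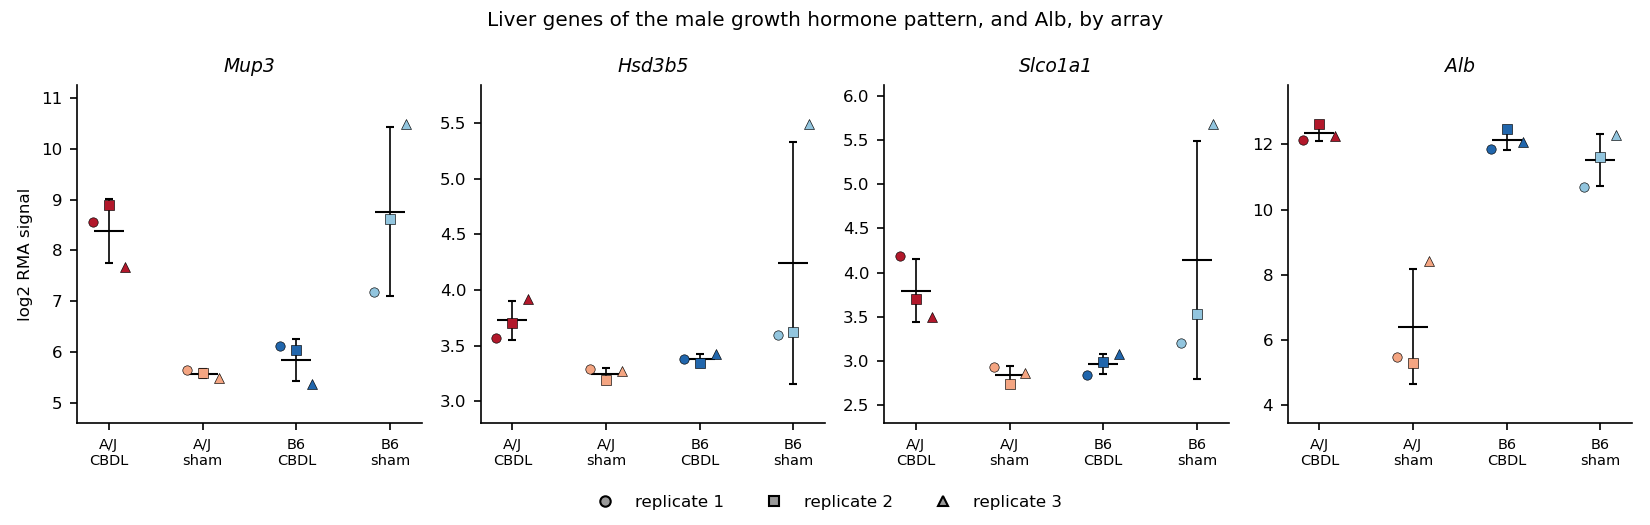
Log2 RMA signal of Mup3, Hsd3b5, Slco1a1 and Alb on each array, by group, with the mean and SD of 3 arrays as bars. In B6 these 3 of the 7 measured genes of the list are lower after CBDL than after sham on every array, while Alb overlaps, and B6 sham replicate 3 is the highest array for those 3 genes. On the other arrays Hsd3b5 and Slco1a1 lie below the array medians.

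The genes whose values over the 12 arrays were most like those of 4 members were listed by Pearson correlation across 19938 genes, as a description of arrays that share groups and, with them, liver-type transcripts. Closest to Igf1 were Amy1 (r = 0.97), Tdo2, Slc10a1, Apoh and Crp (each 0.95). Tdo2, Slc10a1, Apoh and Crp are hepatocyte products or transporters, and Alb itself stood at rank 60 (r = 0.88). Igfals was closest to Cyp1a2, Serpinf1, Cyp2c54, C8a and Glyat (r of 0.85 to 0.87), with Alb at rank 465 (r = 0.53). Igfbp2 was closest to Tmprss6, Camsap3, Apoc4, Urah and Ndrg2 (r of 0.87 to 0.91), with Alb at rank 1223 (r = 0.52). Socs2 was closest to Dhrs9, Wipi2, Gak, Sec22b and Golt1a (r of 0.91 to 0.92), and its own correlation with Alb was -0.37.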

How the data were processed

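Mouse jejunum RNA was hybridised to 12 arrays of the Affymetrix Mouse Gene ST type, 3 per group. The authors deposited log2 signals of 35556 probe sets, which the labels credit to RMA (Affymetrix Expression Console, no version given), while the methods name GCRMA and another array type. The values (1.57 to 14.4, array medians 5.36 to 5.51) were used as deposited. The platform table gave 1 symbol for 21789 probe sets, several for 1621 and none for 12146. The 4 group means were estimated jointly over the 12 arrays (limma 3.58.1, R 4.3.3, moderated by empirical Bayes) and set against each other in 6 comparisons, with Benjamini-Hochberg adjustment over all probe sets. A difference is on the log2 scale, and the number of arrays limits its precision. Every member was named, and of each other list up to 6 genes past the threshold by size, with Clec4g and the pulse genes other than Mup3 named after their values were seen. The members and lists were chosen with earlier results of these data known, so their counts are no independent evidence. Alternatives were the 6 arrays compared alone, without the 30% dimmest probe sets, exactly 1 symbol, quantile normalization, array medians subtracted, weights per array, a robust prior with trend, the replicate number as a block, Alb as a covariate, a second probe set and each array left out in turn. Same-numbered arrays deviated from their group means with correlations between -0.31 and 0.36, so numbers were not taken as pairs. Tested on simulated data with 100 probe sets changed 2-fold and 100 changed 4-fold, 76 and 94 were recovered for A/J CBDL against sham with 14 false calls, and 79 and 96 for B6 with 15. The changed probe sets were drawn from those brighter than the median, with independent normal noise. These numbers therefore give no recovery for dimmer genes such as Igfals. Igfbp1 (4.54 to 5.05) and Pappa (5.24 to 5.34) on the sham arrays, and Igf1 in A/J sham (4.94 to 5.06), also lay below the array medians.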

Additional observations from a re-analysis of the deposited data

How the results depend on the processing

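Of 955 alternative values of single genes 876 kept their direction and their side of the threshold, 38 no longer passed, 16 newly passed, and 25 changed sign, of which none was called (lowest adjusted p = 0.409). Among members, 1 passed in B6 CBDL against B6 sham (Igfbp1) and 1 in A/J sham against B6 sham (Igf1) when probe sets had exactly 1 symbol, and 1 in each with array weights (Igfbp1 and Socs2). With exactly 1 symbol the unadjusted p fell as well, with standard errors of 0.239 for Igfbp1 and 0.194 for Igf1, against 0.262 and 0.209 over all probe sets. With array weights 3044 of all probe sets were called between shams, against 665 without. With array medians subtracted 1 passed in the average over strains (Igf1 had an adjusted p of 0.0503). With Alb as a covariate 0 passed in A/J and 0 in the average, where Igfbp1 was 0.92 (adjusted p = 0.681) and Igf1 0.25 (adjusted p = 0.880). The covariate lies apart between the A/J groups, which widens the standard errors. Leaving out 1 array at a time, 0 to 1 members passed in A/J, 0 to 1 between shams, 0 to 2 in the average, and 0 in B6, between CBDL groups and in the interaction.

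With the replicate number as a block, 1 member passed in the average, since Igf1 had an adjusted p of 0.0719, and Mup3 between shams had one of 0.0671. For the members, Igfbp4, Pappa, Mup3 and Alb, the block changed no other call among the comparisons followed. The other named genes, such as Lct and Cd3e, were not followed through the alternatives. Calls over all probe sets with the block were 190 in A/J, against 291 without it, and 2 in B6, against 19. They were 1299 and 167 with array weights, 565 and 163 with exactly 1 symbol, 0 and 6 with the Alb covariate, and 1 in B6 with its 6 arrays alone and 3 with medians subtracted. Quantile normalization gave 222 higher and 120 lower in A/J, against 224 and 67 as deposited.

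The cause of the sign changes was not tested. In A/J, Socs2 was -0.013 and Cish -0.050 with quantile normalization, -0.033 and -0.0387 with medians subtracted, and -0.20 and -0.13 with array weights. With the Alb covariate Igf1r was -0.094 (0.25 without it), Ghr -0.47 (0.18 without it) and Cish -0.056 in A/J, and Igf1 -0.00134 and Igfals 0.000796 in B6. Igfals in B6 was 0.0029 with quantile normalization, Ghr in B6 0.058 with array weights, and Socs2 in B6 -0.073 by its second probe set. Leaving out 1 array gave -0.070 to 0.16 for Socs2 and -0.092 to 0.12 for Cish in A/J, and -0.17 to 0.29 for Igf1, -0.32 to 0.10 for Ghr and -0.092 to 0.10 for Igfals in B6.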
